A study of Bos taurus with 8 samples.

Results

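The Tribbles pseudokinases TRIB1, TRIB2 and TRIB3 were followed in granulosa cells, the cells that line the ovarian follicle and make oestradiol. Probes were taken as members when the array's annotation gave them the symbol of 1 of the 3 genes, and 7 probes of 43794 met this rule: 3 for TRIB1, 3 for TRIB2 and 1 for TRIB3. The family was chosen with plateau over growing ratios of these same arrays already known, so the ratios and levels of its members are given as a description and no test of them is read. The 7 probes belong to 3 of the 15216 gene symbols that could be named on the array. The cells were mural granulosa cells scraped from Holstein cattle follicles of over 9 mm, from slaughterhouse ovaries of animals whose reproductive status and cycle stage were unknown and whose ages the labels do not give. They came from 4 growing and 4 plateau follicles, each follicle a separate sample that the sources used here do not tie to an animal, with the phase assigned from the DNA content of the cells by flow cytometry. Amplified RNA of 1 growing and 1 plateau follicle was hybridised together, 825 ng labelled per dye, on EmbryoGENE bovine arrays, and every such pair was read again on a second slide with the dyes exchanged, which gave 8 arrays on 2 slides. Follicles are called here by their phase and the number of their pair.

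Tribbles proteins have the fold of a protein kinase but little or no catalytic activity, and they act as scaffolds. Through a tail at their C-terminal end they recruit the ubiquitin ligase COP1, and the proteins held beside it, such as the C/EBP transcription factors, are marked for degradation. They also bind MAP kinase kinases and the kinase AKT, and so adjust the signals that pass through them. In granulosa cells the oestradiol programme, led by CYP19A1 and the FSH receptor, is shut down by the LH surge that precedes ovulation, and C/EBP factors and MAP kinase signalling take part in that response in mice.

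TRIB2 is the member for which the study designed PCR primers. By PCR on a larger set of follicles, the study reported its level as similar in all the phases it compared. It also named TRIB2 among genes whose SD by PCR was higher in plateau follicles than in the other phases. The study ascribed many of its missing differences to that wide plateau SD. Both primers are shown because they mark the TRIB2 transcript that was followed outside the array, in lower case throughout with no part set in capitals.
TRIB2 forward: cacacatcttggcatcgcactgtt
TRIB2 reverse: agcacccaggtttcacatcagtct

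TRIB2 was strongly read in 5 follicles, intermediate in a pair of others and very low in plateau follicle 3. Its brightest probe, EMBV3_27266, gave log2 levels (the mean of a follicle's normalised Cy5 and Cy3 values) of 14.83, 11.45, 15.68 and 15.15 in growing follicles 1 to 4. In plateau follicles 1 to 4 the levels were 15.67, 12.86, 9.10 and 15.97. The low follicles lay in both phases, growing follicle 2 among the former and plateau follicles 2 and 3 among the latter, and the ranges of the phases overlapped: the lowest and the highest of the 8 levels were both those of plateau follicles. The mean level was 14.28 ± 1.92 (SD, n = 4) in growing and 13.40 ± 3.19 (SD, n = 4) in plateau follicles, so the phases differed by less than the spread within either of them. Between the highest and the lowest growing follicle lay 4.23 on the log2 scale, and between the highest and the lowest plateau follicle 6.87.

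Within pairs, TRIB2 did not move in a single direction. The log2 ratio of plateau over growing at EMBV3_27266 was 0.84 in pair 1, 1.41 in pair 2, -6.58 in pair 3 and 0.82 in pair 4. It was thus higher in the plateau follicle in 3 of 4 pairs, while in pair 3 the growing follicle was 95.7-fold higher, and the mean of the 4 pairs was -0.88 ± 3.81 (SD). The sign of the mean was set by pair 3: without it, the mean was 1.02. In every pair both dye orientations gave the same direction, and each lay 0.15 to 0.43 from the value of its pair. In the normalised ratios of the series table the same pairs stood at 0.84, 1.41, -6.63 and 0.83.

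The other TRIB2 probes ordered the follicles in a similar way over a narrower range. Probe EMBV3_14703 read 13.09, 9.32, 13.21 and 13.20 in growing follicles 1 to 4, and 14.01, 10.34, 7.90 and 14.60 in plateau follicles 1 to 4. The dimmest, EMBV3_06689, read 9.04, 7.86, 9.66 and 9.30 in the growing and 9.06, 8.21, 7.93 and 10.46 in the plateau follicles. At all 3 probes growing follicle 2, plateau follicle 2 and plateau follicle 3 were the lowest of the 8, and plateau follicle 4 was the highest. Mean log2 ratios were -0.49 ± 3.22 (SD, n = 4 pairs) at EMBV3_14703 and -0.05 ± 1.22 at EMBV3_06689, each with pair 3 as the only pair below 0 (-5.31 and -1.73).

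**Figure D1:**
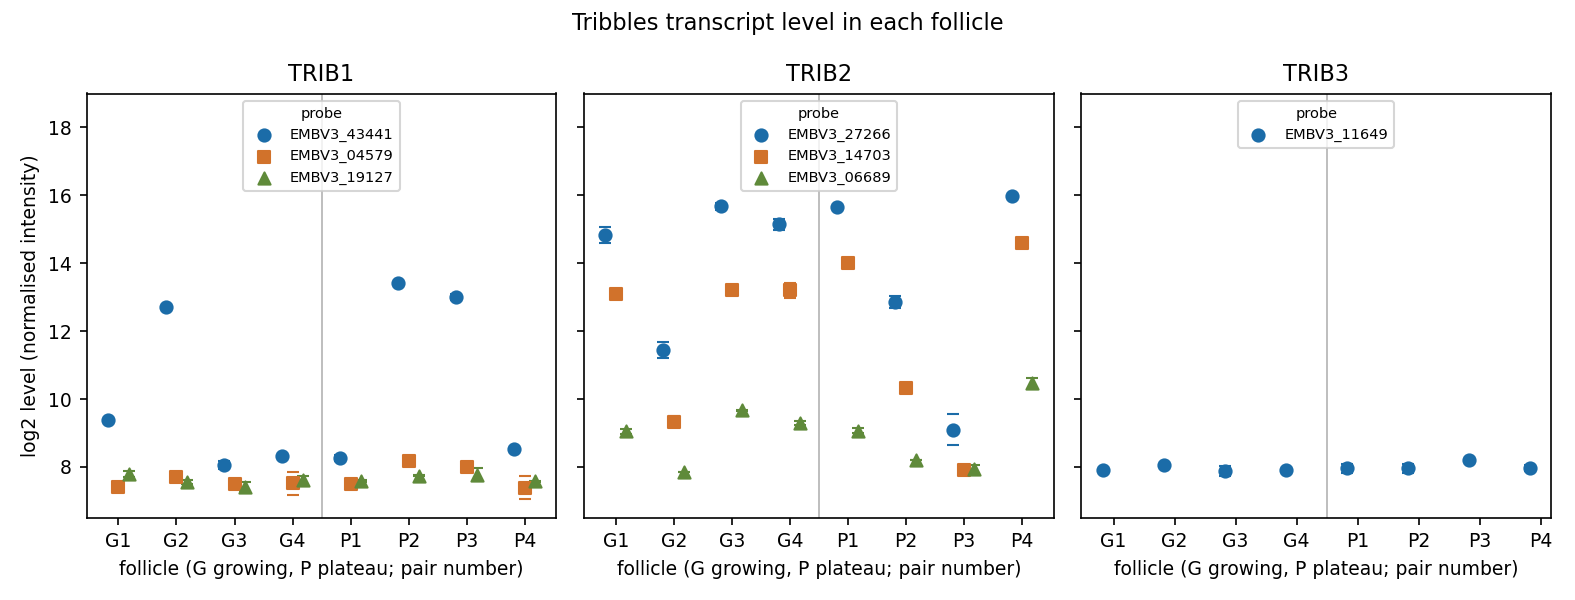
Normalised log2 level of each Tribbles probe in the 4 growing (G) and 4 plateau (P) follicles; large symbols are the mean of a follicle's Cy5 and Cy3 readings, and short dashes are the separate readings. TRIB2 was lowest in G2, P2 and P3, the follicles in which TRIB1 probe EMBV3_43441 was highest, and TRIB3 stayed between 7.88 and 8.20.

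The brightest TRIB2 probe came close to saturation. Its uncorrected spot intensity ran from 413 in plateau follicle 3 to 65406 in plateau follicle 4, near the upper end of the scanner's scale, where differences can be compressed. It was above background, the mean + 2 SD of the negative control spots, in 8 of 8 readings of each phase, as was EMBV3_14703. EMBV3_06689 was above background in 7 of 8 growing and 8 of 8 plateau readings.

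TRIB1 was high in the 3 follicles that were low in TRIB2. Its brightest probe, EMBV3_43441, gave log2 levels of 9.39, 12.71, 8.06 and 8.32 in growing follicles 1 to 4. In plateau follicles 1 to 4 the levels were 8.26, 13.42, 13.01 and 8.53. Growing follicle 2 and plateau follicles 2 and 3 stood well above the other 5, of which growing follicle 1 was the highest, and the phases overlapped. The mean was 9.62 ± 2.14 (SD, n = 4) in growing and 10.81 ± 2.79 in plateau follicles, a difference below the spread within either phase. TRIB1, which is known for binding COP1 and C/EBP alpha, was above background at this probe in every reading.

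The log2 ratio of TRIB1 was -1.13 in pair 1, 0.71 in pair 2, 4.96 in pair 3 and 0.21 in pair 4, with a mean of 1.19 ± 2.63 (SD). In pair 3 the plateau follicle was 31.0-fold higher, and without that pair the mean was -0.07. Both dye orientations gave the same direction in every pair, and each lay 0.01 to 0.20 from the value of its pair. In the ratios of the series table the mean was 1.18 ± 2.65.

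The other TRIB1 probes were near background. EMBV3_04579 was not well above background in any of 8 growing readings and was above it in 4 of 8 plateau readings, both readings of plateau follicles 2 and 3. With each growing reading taken as at least the lowest signal above background, the mean plateau level was 1.09-fold higher. The readings of plateau follicles 1 and 4 in that mean were themselves not above background, so this value is not a lower bound. EMBV3_19127 was above background in 1 of 8 readings of each phase, with a mean log2 ratio of 0.07 ± 0.25 (SD, n = 4 pairs). The pattern of TRIB1 therefore rests on EMBV3_43441.

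TRIB3, which is induced under endoplasmic reticulum stress and amino acid shortage and binds AKT, was near background and almost level. Its single probe, EMBV3_11649, read 7.90, 8.05, 7.88 and 7.90 in growing follicles 1 to 4 and 7.95, 7.96, 8.20 and 7.97 in plateau follicles 1 to 4. It was above background in 5 of 8 growing and 6 of 8 plateau readings. The ratios of the 4 pairs were 0.06, -0.09, 0.32 and 0.08, with a mean of 0.09 ± 0.17 (SD). The dye orientations pointed in opposite directions in pairs 1, 2 and 4, so only in pair 3 did both arrays place TRIB3 higher in the plateau follicle.

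**Figure D2:**
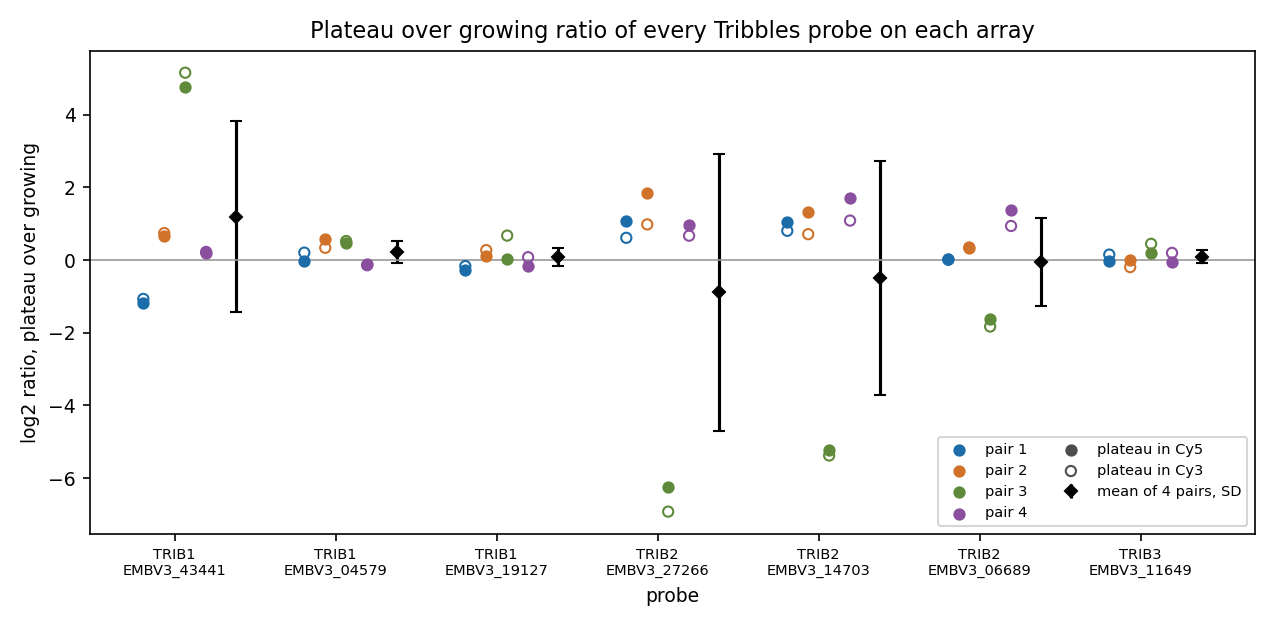
Log2 ratio of plateau over growing for the 7 Tribbles probes on each of the 8 arrays, coloured by follicle pair, filled where plateau RNA was in Cy5 and open where it was in Cy3; diamonds and bars are the mean and SD of the 4 pairs. At EMBV3_27266 pair 3 lies at -6.58 and the other pairs between 0.82 and 1.41, while at TRIB1 EMBV3_43441 pair 3 lies at 4.96.

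The study called a probe changed at a fold of 1.5 or more in either direction, an unadjusted p under 0.05 in limma and an average log2 intensity of 7 or more. This criterion was met by none of the 7 probes and by 0.678% of all 43794. As the members were chosen on this contrast, nothing is read from their count. In the fit used here, to the pair averages, 297 probes met the criterion, 131 higher and 166 lower in plateau follicles. The study itself reported more differentially expressed genes for this contrast. Over all probes 0 passed an adjusted p of 0.05, the lowest adjusted p in limma being 0.9999, whereas 1152 probes (2.63%) had an unadjusted p under 0.05. Leaving out pair 3 removes the only pair in which TRIB2 was lower in the plateau follicle. Probes EMBV3_27266 (mean log2 ratio 1.02) and EMBV3_14703 (1.11) then passed the criterion, as did 0.957% of all probes, and nothing is read from that either.

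TRIB1 and TRIB2 varied widely between follicles. The range over the 8 follicles was 6.87 on the log2 scale at TRIB2 EMBV3_27266 and 6.70 at EMBV3_14703. Of the 23729 probes that averaged 8 or more in log2 intensity, 99.9% had a smaller range than the former. The range of TRIB1 EMBV3_43441, 5.36, was larger than that of 99.6% of these probes, whereas the range of TRIB3, 0.32, was larger than that of 5.55%. TRIB3 itself averaged 7.98, near background, where little range can be read.

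TRIB1 EMBV3_43441 divided the follicles into a high and a low group, while TRIB2 ran from very low through intermediate to strong. No correlation between them is given. Growing follicle 2 and plateau follicles 2 and 3 were the lowest for TRIB2 and the highest for TRIB1 EMBV3_43441. These are whole samples of granulosa cells, in which fewer cells of a type and less RNA per cell cannot be told apart. The same 3 follicles were the lowest for 316 of 5945 genes that averaged 9 or more in log2 intensity (5.32%) and the highest for 229 (3.85%), so the order was shared with many other transcripts.

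CYP19A1, the aromatase that makes oestradiol, was low in the same follicles as TRIB2. Its log2 level was 11.92, 8.15, 15.78 and 14.81 in growing follicles 1 to 4 and 15.41, 8.06, 8.80 and 15.84 in plateau follicles 1 to 4. The 3 follicles low in TRIB2 were also the lowest in CYP19A1, and growing follicle 1 was intermediate for CYP19A1 and the next lowest for TRIB2. By PCR on its larger set, the study found no difference between phases in the mean or variance of CYP19A1. From this it proposed that none of the follicles was pre-ovulatory. It also listed CYP19A1 among the genes with a higher SD in plateau follicles.

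**Figure D3:**
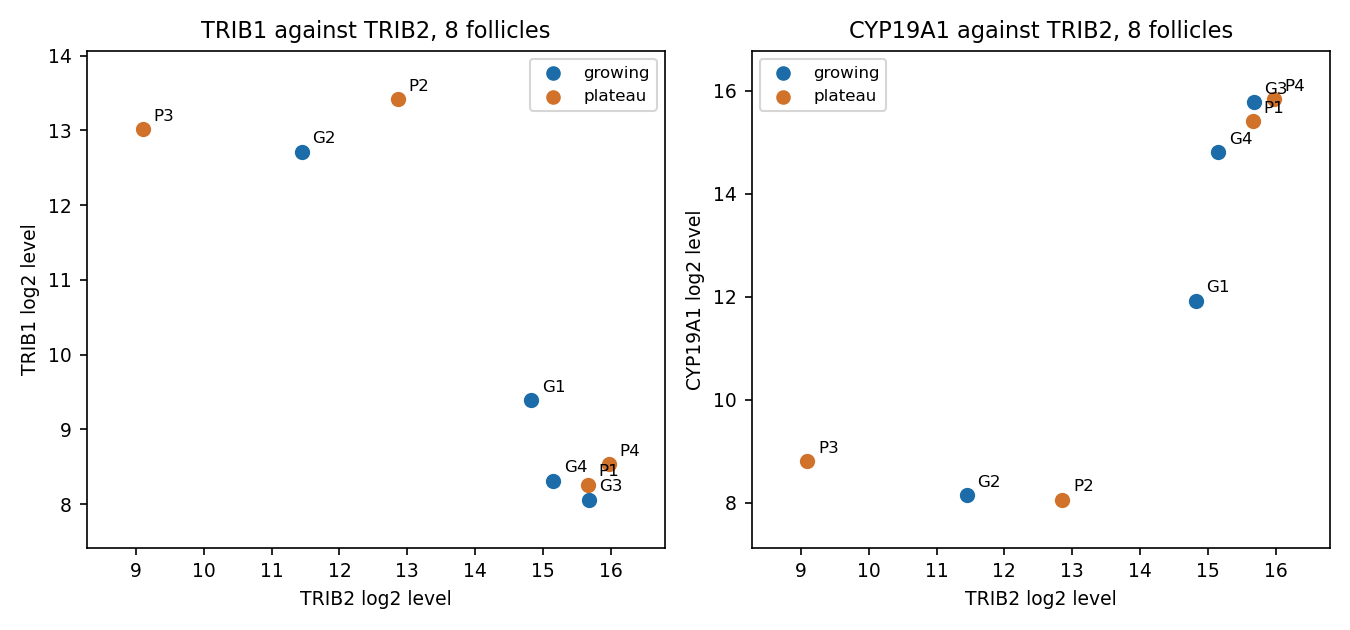
Log2 level of TRIB1 (left) and CYP19A1 (right) against that of TRIB2 in the 4 growing (G) and 4 plateau (P) follicles, each gene by its brightest probe. G2, P2 and P3 lie apart from the other 5 follicles in both panels, with TRIB2 between 9.10 and 12.86, TRIB1 between 12.71 and 13.42 and CYP19A1 between 8.06 and 8.80.

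Markers of the granulosa cell were well read, 6 of 9 being above background in both readings of all 8 follicles. Their summed level was lowest in plateau follicle 3, where TRIB2 was lowest. INHA, INHBA, GJA1 and FOXL2 were each lowest there. CYP19A1, HSD17B1 and AMH were lowest in plateau follicle 2, FSHR in growing follicle 2 and NR5A2 in growing follicle 3. The summed level of the 9 granulosa markers was 16.18 to 17.98 on the log2 scale in growing follicles, and in plateau follicles it ran from 14.11 in plateau follicle 3 to 17.97. Growing follicle 2, low in TRIB2, had a sum of 17.14, above the 16.18 of growing follicle 1, and plateau follicle 2 had 16.07. INHA and INHBA, the brightest of these markers, were at the scanner's ceiling in 8 and 7 of 16 readings, so the higher sums are lower bounds. The summed level of 9 smooth muscle cell and fibroblast markers was 13.50 to 14.00 in growing follicles and 13.09 to 16.74 in plateau follicles, the highest being that of plateau follicle 3. ACTA2 (15.83) was the brightest of them there. MYH11 was instead at its lowest there (7.26), and PDGFRB stayed between 7.72 and 7.95 in all 8. The remaining markers of this set were each highest there. Of 6 leukocyte markers the sum was 10.45 to 10.99 in growing follicles and 10.41 to 12.29 in plateau follicles. Plateau follicles 2 and 3, with 11.97 and 12.29, were the highest for the leukocyte markers, and growing follicle 2, with 10.79, lay inside the range of the others. Among them CD68, a lysosomal protein of macrophages, was 10.53 in plateau follicle 2 and 10.23 in plateau follicle 3 and between 8.04 and 8.58 in the other 6. LAPTM5 was 9.86 and 10.64 in that pair of follicles and at most 8.51 in the others, and CD53 was 9.77 and 10.34 there and at most 9.12 in the others. PTPRC, the leukocyte antigen CD45, stayed between 8.12 and 8.49 in all 8. CD14 was highest in plateau follicle 3 (8.53) but was 7.94 in plateau follicle 2, below growing follicle 2 (8.05). CSF1R was near background, above it in 2 of 8 growing and 0 of 8 plateau readings. Its level was 7.28 in plateau follicle 2 and highest in growing follicle 3 (7.66). The sum of 6 endothelial markers was highest in growing follicle 2 (11.91) and plateau follicle 3 (11.44), close to growing follicle 1 (11.41), and 10.68 to 10.87 in the other 5. KDR, a VEGF receptor, was 11.27 in growing follicle 2 and 10.48 in growing follicle 1, and CLDN5 was highest in plateau follicle 3. The other endothelial markers, PECAM1, CDH5, VWF and TEK, stayed between 7.37 and 8.23 in all 8. In growing follicle 2 TEK was at its lowest (7.74) and PECAM1 (7.39) near its lowest, while CDH5 and VWF lay inside their ranges. PECAM1 was above background in only 1 of 8 readings of each phase. The sum of 4 theca markers lay between 10.15, in plateau follicle 3, and 11.17, in growing follicle 3. The part of these cell types in the levels of TRIB1 and TRIB2 was not tested.

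The genes whose levels were most like those of each member were ranked by Pearson's r over the 8 follicles among 5944 or 5945 genes, as a description only. For TRIB2 they were CDH12, a cadherin (r = 0.994), GNA11, a G protein alpha subunit (0.986), NSUN3, an RNA methyltransferase of mitochondria (0.980), PRR15 (0.977) and GLCCI1, a glucocorticoid-induced transcript (0.975). The most opposed were ANXA1, the phospholipid-binding annexin A1 (-0.984), LOC511937 (-0.981) and STEAP1, a metalloreductase (-0.979). CDH12 ran from 7.58 in plateau follicle 3 to 12.27 in plateau follicle 4, and ANXA1 from 8.20 in plateau follicle 1 to 13.72 in plateau follicle 3. With any 1 pair left out, 2 or 3 of the 5 nearest genes remained among the nearest 5.

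For TRIB1 the nearest genes were KRT18, a keratin of simple epithelia (r = 0.983), PHC2, a Polycomb protein (0.983), MCL1, a survival protein of the BCL2 family (0.972), VASP (0.963) and FSCN1 (0.959), the last pair being proteins of the actin cytoskeleton. The most opposed were GCLC, an enzyme of glutathione synthesis (-0.982), CYP19A1 (-0.973) and B3GNT3, a glycosyltransferase (-0.970). KRT18 was 10.49 in growing follicle 2, 11.47 in plateau follicle 2 and 10.89 in plateau follicle 3, and between 7.69 and 8.26 in the other 5. As the follicles lay in clusters and share arrays, these coefficients mainly say that the genes separate the same follicles. With any 1 pair left out, 1 to 3 of the 5 nearest genes of TRIB1 remained.

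For TRIB3 the nearest genes were BMP2, a growth factor of the BMP family (r = 0.977), CCNB1IP1 (0.968), AP1B1 (0.960), FN1, fibronectin (0.959), and EIF2AK4, the kinase GCN2 that senses amino acid shortage (0.957), and the most opposed were TOX2 (-0.966), POLR2H (-0.964) and MORF4L1 (-0.954). The whole range of TRIB3 was 0.32, while its dye orientations lay 0.09 to 0.12 from the value of their pair, so its likeness to other genes rests on small differences. With 1 pair left out, 0 to 3 of the 5 genes remained.

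**Figure D4:**
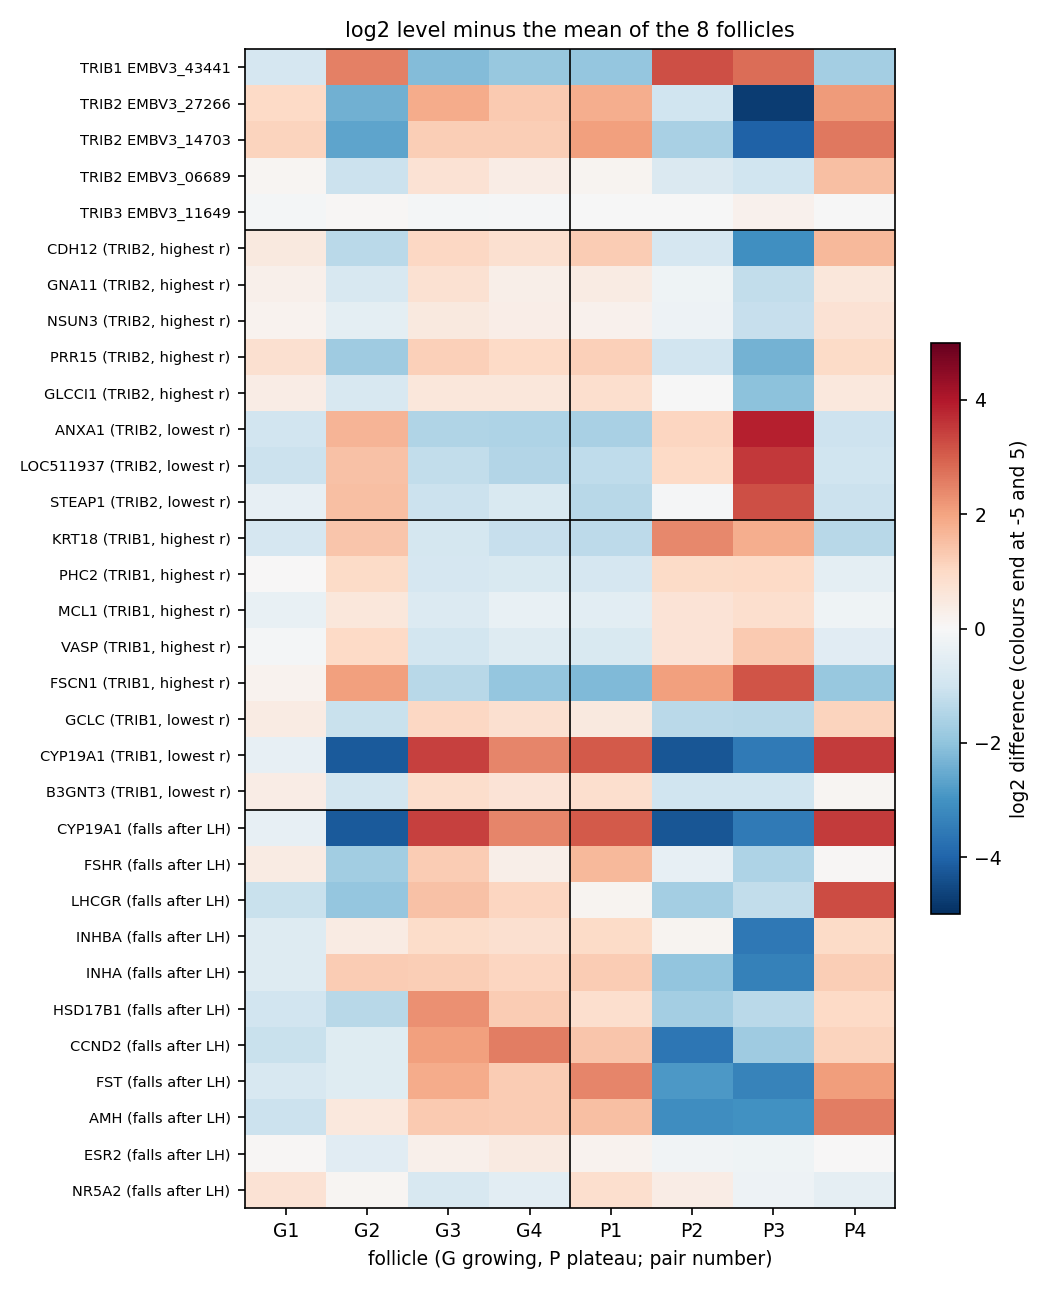
Log2 level minus the mean of the 8 follicles for the brightest probe of TRIB1, all TRIB2 probes, TRIB3, the genes with the highest and lowest r with TRIB2 and TRIB1, and the 11 genes listed as falling after the LH surge; columns are growing (G) and plateau (P) follicles, and colours end at -5 and 5. CYP19A1 was lowest in G2, P2 and P3, as was TRIB2, and P3 was the lowest of all at TRIB2 EMBV3_27266.

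Among known partners and substrates of Tribbles proteins, 18 of 20 listed genes could be read. The mean ratio was above 0 for 10 of them and below 0 for 8, with a median of 0.06, beside 51.1% above 0 and a median of 0.00 over all 15216 genes, and none met the criterion (157 of all genes did). The highest were FOXO1, a transcription factor restrained by AKT (0.59 ± 2.16, SD, n = 4 pairs), and COP1 itself (0.24 ± 0.23). COP1 was higher in the plateau follicle in 3 of 4 pairs, and its other probe had the opposite sign. The lowest were MAP2K1, the kinase MEK1 (-0.35 ± 1.25), and CEBPD, a C/EBP factor (-0.32 ± 1.16). CEBPA, the best known substrate of TRIB1 and TRIB2, was near background with a mean ratio of -0.00 ± 0.11.

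The ratio of COP1 stayed between -0.11 and 0.39 in the 4 pairs, in contrast to the ratios of TRIB1 and TRIB2. FOXO1 was 3.59 in pair 2 and -1.43 in pair 3, and was thus opposite in sign to TRIB1 in pair 3. Of the 18 genes only TCF7L2, a partner of beta catenin, had its 3 highest levels in the 3 follicles highest in TRIB1 (5.56%), and none had its 3 lowest there. Over the 5945 genes that averaged 9 or more, these shares were 3.85% and 5.32%, so nothing particular to the list is read. TCF7L2 averaged only 8.31 and was above background in 5 of 8 growing readings. It read 8.57 in growing follicle 2, close to the 8.37 of growing follicle 1, and 1 of its 2 other probes had the opposite sign.

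TRIB3 is a target of the stress transcription factors ATF4 and CHOP, and 19 of 20 genes listed with them were read. The mean ratio was above 0 for 11 (57.9%) and below 0 for 8, with a median of 0.06, and none met the criterion. Over all 15216 genes 51.1% were above 0, with a median of 0.00, and 157 met the criterion. The highest of the listed genes were ATF3, a stress-induced transcription factor (1.05 ± 1.62), and PSAT1, an enzyme of serine synthesis (0.49 ± 1.53). The lowest were PHGDH, which opens the same pathway (-0.61 ± 1.08), and ASNS, asparagine synthetase (-0.41 ± 1.75). In each of these 4 genes the SD over pairs exceeded the size of the mean.

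ATF3 was the only member of that list with its 3 highest levels in the 3 follicles highest in TRIB1. That is 5.26% of the 19 genes and 11.1% of the 9 that averaged 9 or more, beside 3.85% of the 5945 genes. EIF2AK3 had its 3 lowest levels there (5.26%, beside 5.32%), and nothing particular to the list is read. The ratio of ATF3 was -0.61, 1.98, 2.83 and 0.01 in pairs 1 to 4. Its levels of 11.24 in plateau follicle 2, 11.06 in plateau follicle 3 and 9.26 in growing follicle 2 were the highest of the 8. Growing follicle 1 was close behind the last of these, at 9.01. ATF4 and DDIT3, which encodes CHOP, had mean ratios of -0.10 ± 0.50 and 0.25 ± 0.50, and both other probes of DDIT3 had the opposite sign.

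Genes known to fall in granulosa cells after the LH surge include the oestradiol programme named above. All 11 listed were read, 2 with a mean ratio above 0 (18.2%) and 9 below, with a median of -0.64, and none met the criterion. Over all 15216 genes 51.1% were above 0, with a median of 0.00, and 157 met the criterion. The median of the 11 was 1.78 in pair 1, -0.25 in pair 2, -3.84 in pair 3 and 0.15 in pair 4. Its sign, like that of TRIB2, thus hung on pair 3. Without that pair 9 of the 11 were above 0, with a median of 0.405. The lowest means were those of CCND2, cyclin D2 (-1.45 ± 2.83), and INHA, the inhibin alpha subunit (-1.44 ± 3.01), whose probe was at the scanner's ceiling in 8 of 16 readings, so that its ratio is inexact, and the highest those of NR5A2, a nuclear receptor of steroid-making cells (0.26 ± 0.20), and LHCGR, the LH receptor (0.26 ± 2.12).

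The 3 follicles lowest in TRIB2 were also the 3 lowest for CYP19A1, FSHR and HSD17B1, which completes oestradiol synthesis. These are 3 of the 9 listed genes bright enough to stand among the 5945 genes above (33.3%, beside 5.32% of all of those), and nothing particular to the list is read from it. LHCGR and ESR2, an oestrogen receptor, had the same 3 lowest follicles but were dimmer, LHCGR being above background in 5 of 8 readings of each phase. The 3 follicles were the 3 highest for none of the 11. The FSH receptor read 8.43 in growing follicle 2, 9.75 in plateau follicle 2 and 8.64 in plateau follicle 3, and between 10.24 and 11.81 in the other 5. AMH, anti-Müllerian hormone, did not share this order, with 11.62 in growing follicle 2, 7.98 in plateau follicle 2 and 8.06 in plateau follicle 3.

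Of 15 genes listed as rising after the LH surge 12 were read, 5 with a mean ratio above 0 (41.7%) and 7 below, with a median of -0.28. None met the criterion. Over all 15216 genes 51.1% were above 0, with a median of 0.00, and 157 met the criterion. The median of the 12 was 0.07 without pair 1 and 0.01 without pair 2, so its sign was not stable. The highest were ANKRD1, a YAP target (1.89 ± 2.99), and ADAMTS1, a protease of the ovulatory follicle (0.49 ± 2.34). The lowest were TNFAIP6, a matrix protein of cumulus expansion (-1.58 ± 3.83), and PGR, the progesterone receptor (-1.10 ± 1.76). ANKRD1, with a ratio of 6.29 in pair 3, and PTX3, another matrix protein of the expanding cumulus, had their 3 highest levels in the 3 follicles highest in TRIB1. TNFAIP6 instead had a ratio of -5.91 in pair 3, opposite to TRIB1, so the genes of this list did not share 1 order of follicles. ANKRD1 and PTX3 were 2 of the 12 genes read (16.7%), and ANKRD1 was 1 of the 5 that averaged 9 or more (20%). The share over the 5945 genes was 3.85%, and nothing particular to the list is read.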

How the data were processed

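Granulosa cell RNA of 4 growing and 4 plateau follicles was read on 8 arrays of 2 colours. The deposited intensity values are medians over the pixels of a spot and of its surroundings, which the authors had neither corrected nor normalised, after image processing with Array-Pro Analyzer 6.4, in which 12 to 30 spots per array were excluded by hand. The log2 ratios of Cy5 over Cy3 deposited by the authors came from FlexArray 1.6.1, which builds on limma, by subtracting the background and then normalising with loess and quantiles; they were used as an alternative (r = 0.9935 to 0.9987 per array with the ratios used here; column medians -0.0273 to -0.00273).

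In R 4.3.3, limma 3.58.1 was used for normexp correction (offset 50), then loess within arrays with control and excluded spots left out of the fit, then quantile normalisation between them. Ratios were turned to plateau over growing. The labels name the dye and phase of every array. Arrays at the same position of both slides were taken as the dye-swap of a pair (deviations from the slide mean correlated at 0.87 to 0.94, against -0.47 to -0.14 for other positions) and averaged, giving n = 4 pairs, tested against 0 with lmFit and eBayes, with Benjamini-Hochberg adjustment over 43794 probes. Each slide holds 1 dye orientation. The fit was tested on simulated data. Of the probes, 21790 had 1 symbol (1524 updated from a synonym) and 22004 none. Above background meant over the mean + 2 SD of 757 negative and dark spots, which held for 56.6% to 66.3% of probes in Cy5 and 59.5% to 79.1% in Cy3. The number of arrays limits the precision.

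The members and the gene lists were chosen with earlier results of these data known. Each listed gene was read by its probe of highest mean intensity, and cell markers were summed on the linear scale. Named were all member probes, from each list the 2 highest and the 2 lowest mean ratios, and for each member the 5 genes with the highest and the 3 with the lowest r, among genes that averaged 9 or more in log2 intensity and were above background in at least 12 of 16 readings. Other genes named, among them CYP19A1, CEBPA, ATF4, DDIT3, TCF7L2, PTX3, FSHR, AMH, PTPRC, CD68, CD53, LAPTM5 and KDR, were picked after their values were seen or for their role. Alternatives were plain background subtraction, the deposited ratios, loess alone, an offset of 16, another intensity minimum, each slide alone, 8 arrays with the replicate block or as independent, and leaving out each pair.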

Additional observations from a re-analysis of the deposited data

Results flagged for a closer look

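In 5 of 21 sets of 4 values for the member probes, the highest or the lowest stood apart from the others by a share of the whole range above Dixon's critical value for 4 values. Chance alone marks about 1 in 20 such groups. The sets are not independent, since probes of a gene and levels and ratios share follicles, and the family was chosen with these values known, so they are listed as a description and no test is read. At TRIB2 EMBV3_27266 the log2 ratio of pair 3, -6.58, stood apart from the other pairs, the nearest of which was 0.82. At TRIB2 EMBV3_14703 the ratio of pair 3, -5.31, stood apart in the same way from 0.92. At that probe the level of growing follicle 2, 9.32, stood apart from the other growing follicles, the nearest of which was 13.09. For TRIB3, growing follicle 2 at 8.05 stood above the other growing follicles (nearest 7.90), and plateau follicle 3 at 8.20 above the other plateau follicles (nearest 7.97), both close to background.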

How the results depend on the processing

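The number of probes at the study's criterion, 297, became 1049 on the slide with plateau RNA in Cy5 alone and 851 on the other slide alone, and 714 with the 8 arrays taken as independent, where 1 probe passed an adjusted p of 0.05 in limma. With the pair as a replicate block and a dye term it was 673, and no member probe was called in that fit. Leaving out each pair in turn gave 338 to 1538. Without pair 3, the only pair of opposite sign, EMBV3_27266 and EMBV3_14703 of TRIB2 turned from means of -0.88 and -0.49 to 1.02 and 1.11 and passed the criterion, from which nothing is read, and no member probe passed under the other alternatives. The mean of TRIB1 EMBV3_43441 was -0.07 without pair 3 and between 1.11 and 1.96 under the other alternatives. EMBV3_06689 and EMBV3_19127, whose means were -0.05 and 0.07, took the opposite sign on the slide with plateau RNA in Cy5 alone (0.03 and -0.07) and without pair 3 (0.51 and -0.02). By Spearman's rho the median likeness of the 5 nearest genes was 0.905 for TRIB1 and 0.881 for TRIB3, and with 1 pair left out Pearson's r had a median of 0.981 to 0.989 for TRIB2 and 0.908 to 0.980 for TRIB3. With 1 pair left out, 3 to 7 genes listed as rising after the LH surge were above 0 (3 without pair 3), and 1 to 9 of those listed as falling (1 without pair 1, 9 without pair 3). Of 89 values under alternatives, 15 moved and 74 did not, a member's mean being held to have moved past 1 SD of its pairs and a count past 1.5 times. The turns of TRIB1 and TRIB2 without pair 3 lie within that wide SD and are among the 74. The cause was not tested. Spot intensity limits what can be read of TRIB3 and of EMBV3_04579 and EMBV3_19127 of TRIB1, which were near background, and the scanner's ceiling limits TRIB2.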
